A study of Mus musculus with 24 samples.

Results

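The 39 genes described here are the secreted and surface end of WNT signalling with 1 intracellular read-out. They comprise 19 WNT ligand genes, 10 Frizzled receptor genes, 4 Dickkopf (Dkk) genes, 4 secreted Frizzled-related (Sfrp) genes, Wif1 and Axin2. They were chosen by symbol among 30590 gene symbols in the day 1 to 4 count tables, and were found again by Ensembl identifier among the 43629 identifiers of the endpoint tables. All 39 were present in both sets of tables.

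Polyadenylated RNA was sequenced from E14 mouse embryonic stem cells (mESCs), a line of 129/Ola background, that lacked AGO2 (KO) or were wild type (WT). AGO2 is an Argonaute protein that binds small RNAs and represses or cleaves their targets. KO and WT cells were sampled on days 1, 2, 3 and 4 of a 5-day protocol towards extraembryonic endoderm (XEN), with 2 libraries per genotype and day. The medium of all of these cells contained activin A at 10 ng/mL, retinoic acid at 0.1 µM and 15% serum. The endpoint libraries were 2 KO diff_XEN libraries, 2 WT diff_XEN libraries and 2 WT mESC libraries at passages 33 and 42, the last grown with 15% serum and 100 U/mL LIF. For the diff_XEN cells the same 5-day protocol is given, with the same activin A, retinoic acid and serum, but no day. The titles of all endpoint samples mark them as re-used. The 2 KO diff_XEN libraries came from clones C4 and 5-3, 1 library each, and the sources do not state which clone gave the KO libraries of days 1 to 4. No label says that libraries of a group were separate cultures, so the tests weigh differences against library spread that may be technical.

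WNT proteins are lipid-modified secreted ligands that bind Frizzled receptors. Together with LRP co-receptors, many of them stabilise β-catenin, which activates target genes through TCF and LEF factors, whereas others act through polarity or calcium pathways. Dkk proteins mostly block the LRP co-receptors, Sfrp proteins and WIF1 bind the ligands themselves, and AXIN2 is a scaffold of the β-catenin destruction complex whose own gene is a widely used transcriptional target of the pathway. In the mouse embryo, WNT signals take part in forming the body axis and the primitive streak, and Dkk1 is made by the anterior visceral endoderm.

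Levels are CPM, read counts brought to a common sequencing depth with TMM scaling, and fold changes are log2 values with their standard error. Tests used edgeR's quasi-likelihood test with Benjamini-Hochberg adjustment over all genes tested, and a gene was called at an adjusted p below 0.05. Library totals ranged from 10601574 to 27147835 counts on days 1 to 4 and from 13941826 to 40139219 counts at the endpoint. Ago2 itself lay between 33.8 and 148 CPM in the 8 KO libraries of the course, against 186 to 581 CPM in the 8 WT libraries, and was 115 and 9.35 CPM in KO clones C4 and 5-3, against 389 and 427 CPM in WT diff_XEN libraries. The libraries of day 3 were the least alike within a group. On that day 9 of the 39 genes differed more than 2-fold between the KO replicates and 10 between the WT replicates, whereas on day 1 none did in either genotype (0.5 CPM added). The expression filter kept 35 of the 39 genes in the course, 30 in the diff_XEN comparison and 33 in the comparison of diff_XEN with mESCs. Dkk4, Wnt9b and Wnt16 passed none of the 3 filters, and Wnt10a failed that of the course, where these 4 genes reached at most 12 counts or 0.819 CPM in any library.

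Marker genes of several cell types also differed between the genotypes in these bulk libraries. On day 4, 7 of 7 visceral endoderm markers were called lower in KO cells, whose summed level was 19.4 to 40.5 CPM, against 2210 to 2242 CPM in WT cells. At diff_XEN the sums were 9.64 to 107 CPM in KO libraries and 8410 to 8496 CPM in WT libraries, with 5 of 7 markers called lower and none of the 7 at 0 in both KO libraries. Primitive endoderm markers summed to 14.8 to 21.1 CPM in KO cells and 70.5 to 80.3 CPM in WT cells on day 1, with 6 of 7 called lower. Of the 7, 4 were called lower and 1 higher on day 2, and 5 lower on day 3. On day 4 they summed to 306 to 307 CPM in KO cells and 1467 to 1545 CPM in WT cells, with 5 of 7 called lower. In diff_XEN they summed to 410 to 610 CPM in KO libraries, against 3228 to 4253 CPM in WT libraries, with all 7 called lower. Parietal endoderm markers summed to 7552 to 8872 CPM in KO and 37812 to 61453 CPM in WT diff_XEN libraries, with 5 of 7 called lower. Mesenchyme markers summed to 2421 to 3868 CPM in KO and 323 to 729 CPM in WT diff_XEN libraries, where 4 of 8 were called higher and 2 lower, with Lum at 0 in both KO libraries. Neural markers summed to 395 to 480.0 CPM in KO and 49.9 to 77.0 CPM in WT diff_XEN libraries, where 3 of 4 tested were called higher. Pluripotency markers summed to 46.7 to 49.8 CPM in KO and 262 to 279 CPM in WT diff_XEN libraries, with 5 of 6 tested called lower. Trophoblast markers summed to 73.6 to 132 CPM in KO and 17.1 to 31.5 CPM in WT diff_XEN libraries, with 2 of 5 called higher and 1 lower, and Cdx2 at 0 in both KO libraries. Primitive streak markers summed to 3.39 to 7.52 CPM in KO and 11.2 to 15.1 CPM in WT diff_XEN libraries, with 1 of 4 tested called lower, T at 0 in both KO libraries and Mesp1 at 0 in all 4. A lower level in such libraries can mean fewer cells of a type or less RNA per cell, and these cannot be told apart. The part of these cell-type differences in the results below was not tested.

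**Figure D1:**
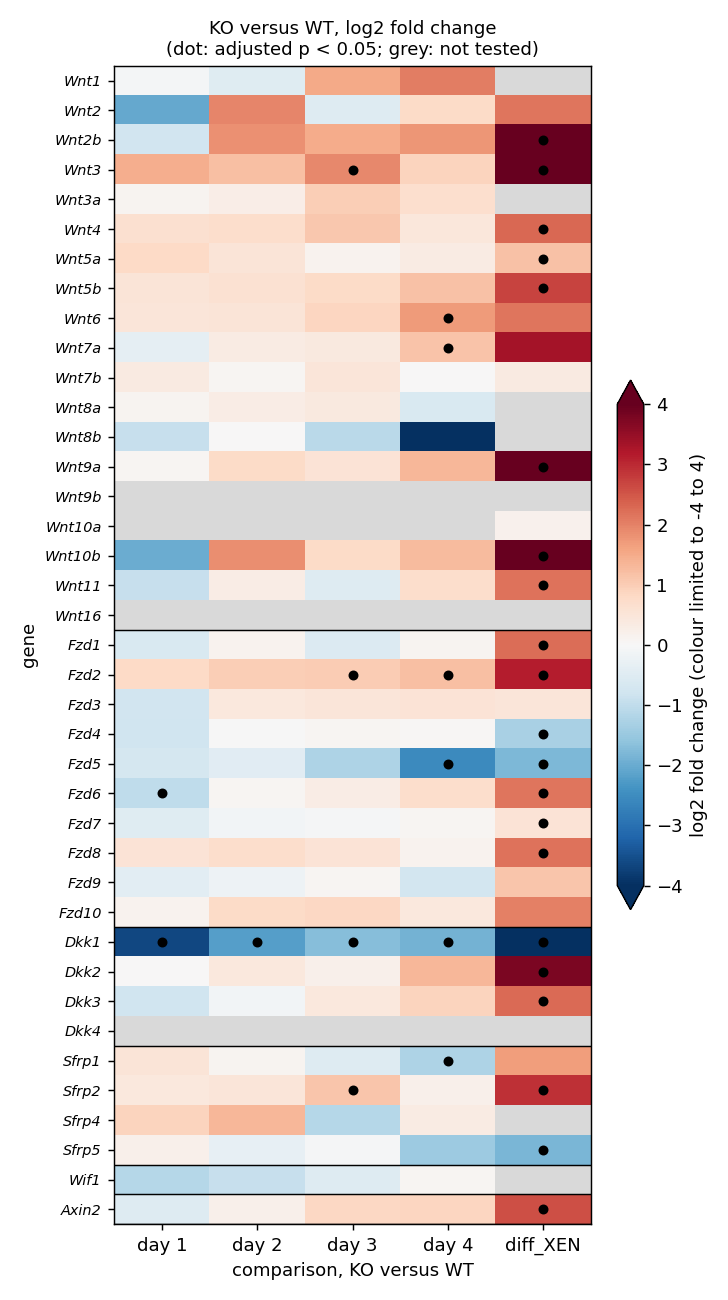
Log2 fold change of KO over WT for the 39 genes (rows, grouped by family) on days 1 to 4 and at diff_XEN (columns), with red for higher and blue for lower in KO cells, dots for calls and grey for genes not tested. Dkk1 is the gene with a blue called cell in all 5 columns, and most ligands and receptors are red at diff_XEN.

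Few of these genes were called between KO and WT cells on single days, and many were at the endpoint. On day 1, 2 of 35 tested genes were called, both lower, where 13.6% of all genes tested were called (6.89% higher and 6.71% lower). On day 2 the 1 call was lower, where 1.63% of all genes were called (0.774% higher and 0.853% lower). On day 3 there were 3 higher and 1 lower, where 4.83% of all genes were called (1.83% higher and 3% lower). On day 4 there were 3 higher and 3 lower, where 7.04% of all genes were called (1.99% higher and 5.05% lower). Over the mean of the 4 days, 9 were called higher and 3 lower, or 34.3% of those tested, against 17.5% of all genes (7.52% higher and 10% lower). At diff_XEN 17 were called higher and 4 lower, or 70% of the 30 tested, against 47% of all genes (22.1% higher and 24.9% lower). In the main fit the share called was below that of all genes on day 1 and rested on 1 gene on day 2. With no expression filter it was 23.1% on day 1, against 13% of all genes, and 20.5% on day 2, against 3.78%. In fits of the 4 libraries of a day it was 20% on day 1, against 17%, and 24.2% on day 2, against 8.7%. The DESeq2 Wald test gave 11.4% on day 1, against 17.6% of all genes. On day 3 the 4 calls became 0 in a fit of the 4 libraries of that day (edgeR, 8 at an unadjusted p below 0.05), 1 without KO replicate 1 or WT replicate 2, and 10 without WT replicate 1. On day 4 the 6 calls became 3 without KO replicate 1 or WT replicate 1. Without day 3 the mean over days had 5 calls, or 14.3% of those tested, close to the 12.4% of all genes called there. The share at diff_XEN was above that of all genes. A gene scarce in 1 genotype could pass the filter there through the other genotype alone, which sets its direction. The median log2 fold change of the tested genes was -0.07 on day 1, 0.31 on day 2, 0.40 on day 3, 0.44 on day 4 and 2.15 at diff_XEN, whereas the median of all genes lay between -0.0213 and -0.000838 in each of these comparisons. Wnt8b had no count in the KO libraries of day 4, and the day 4 median is the same with it at its bound. Over the course, 4 of the 35 tested genes (Wnt3, Wnt6, Fzd2 and Sfrp2) were higher in both KO libraries than in both WT libraries on every day, or 11.4%, where 2.48% of all genes were. Lower on every day were 2 genes (Dkk1 and Fzd5), or 5.71%, where 3.05% of all genes were.

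Among the ligands, Wnt3 was called higher on day 3, and Wnt6 and Wnt7a on day 4. Wnt3, which is needed for primitive streak formation in the mouse, stood at 1.39 and 1.796 CPM in KO cells, against 0.601 and 0.547 CPM in WT cells on day 1, and at 6.398 and 5.61 CPM, against 2.82 and 2.41 CPM, on day 2. On day 3 it stood at 4.47 and 6.397 CPM in KO cells and 2.31 and 0.615 CPM in WT cells, and on day 4 at 7.81 and 3.46 CPM in KO cells and 3.05 and 2.93 CPM in WT cells. All KO libraries exceeded the WT libraries of their day, although the day 4 gap to the lower KO library was small. The log2 fold change was 1.93 ± 0.49 on day 3 (adjusted p = 0.0374) and 1.37 ± 0.24 over the 4 days (adjusted p = 0.00117). The day 3 call was lost without KO replicate 1, KO replicate 2 or WT replicate 2 of that day and in a fit of the 4 day 3 libraries alone, whereas the mean over days kept its call in every alternative run. The day 3 value was 3.11 without WT replicate 1 and 1.23 without WT replicate 2.

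Wnt6 parted from WT mainly at the end of the course. It stood at 0.735 and 0.875 CPM in KO cells and 0.721 and 0.421 CPM in WT cells on day 1, and at 1.12 and 1.08 CPM in KO cells and 0.597 and 0.925 CPM in WT cells on day 2. On day 3 the values were 5.67 and 8.63 CPM in KO cells and 3.97 and 3.76 CPM in WT cells, and on day 4 they were 14.4 and 11.7 CPM in KO cells and 3.59 and 4.37 CPM in WT cells. WT levels were alike on days 3 and 4, and KO levels were higher on day 4 than on day 3. The day 4 log2 fold change was 1.71 ± 0.30 (adjusted p = 0.00276), and that over the 4 days was 0.89 ± 0.17 (adjusted p = 0.00247). Both calls held in all alternatives.

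Wnt7a, best known as a limb and neural ligand, held 0.503 and 0.322 CPM in KO cells and 0.481 and 0.589 CPM in WT cells on day 1, then 3.03 and 2.85 CPM in KO cells and 2.39 and 2.31 CPM in WT cells on day 2. It held 7.67 and 7.85 CPM in KO cells and 7.02 and 4.85 CPM in WT cells on day 3, and 10.7 and 11.3 CPM in KO cells and 5.12 and 4.94 CPM in WT cells on day 4. The genotypes overlapped on day 1 alone. The day 4 log2 fold change was 1.13 ± 0.25 (adjusted p = 0.0143), a call lost when any 1 of the 4 libraries was left out.

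Wnt9a was the most abundant ligand of the course by mean CPM. The gene lies on chromosome 11 (59306928 to 59333552, plus strand, GRCm38, ENSMUSG00000000126). It stood at 8.23 and 12.02 CPM in KO cells and 7.65 and 11.7 CPM in WT cells on day 1, and at 17.4 and 23.3 CPM in KO cells and 12.00 and 12.1 CPM in WT cells on day 2. On day 3 it reached 25.1 and 69.2 CPM in KO cells and 35.6 and 28.3 CPM in WT cells, and on day 4 139.6 and 78.7 CPM in KO cells and 52.1 and 34.4 CPM in WT cells. The groups did not overlap on days 2 and 4, and the KO libraries of days 3 and 4 differed widely from each other. The day 4 log2 fold change of 1.34 ± 0.42 was not called (adjusted p = 0.0842). The mean over days, 0.68 ± 0.21 (adjusted p = 0.0484), was called. That call was lost without any 1 of 10 of the 16 libraries, without day 3 and with the replicate number as a block. Per kilobase of exon, Wnt8a led the ligands in KO cells on day 1, with 4.35 to 4.47 CPM per kb, and Wnt9a led on day 4, with 23.6 to 41.9 CPM per kb in KO cells and 10.3 to 15.6 CPM per kb in WT cells.

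Wnt4, which directs kidney tubule formation, had 4.79 and 5.94 CPM in KO cells and 3.73 and 3.07 CPM in WT cells on day 1 and 19.5 and 16.4 CPM in KO cells and 11.8 and 10.3 CPM in WT cells on day 2. Its values were 23.2 and 19.2 CPM in KO cells and 14.2 and 6.35 CPM in WT cells on day 3 and 27.6 and 16.5 CPM in KO cells and 21.7 and 10.7 CPM in WT cells on day 4. KO exceeded WT without overlap on the first 3 days. Wnt5b, a relative of the non-canonical ligand Wnt5a, had 1.39 and 2.302 CPM in KO cells and 1.44 and 1.09 CPM in WT cells on day 1 and 5.98 and 8.98 CPM in KO cells and 4.07 and 5.78 CPM in WT cells on day 2. It had 13.9 and 12.02 CPM in KO cells and 11.2 and 4.302 CPM in WT cells on day 3 and 9.91 and 13.8 CPM in KO cells and 4.13 and 6.44 CPM in WT cells on day 4. Here the genotypes overlapped on day 1 alone. Over the 4 days the log2 fold change was 0.72 ± 0.19 for Wnt4 (adjusted p = 0.0171) and 0.76 ± 0.21 for Wnt5b (adjusted p = 0.0216). Both calls were lost without day 3, and that of Wnt5b also without any 1 of 4 single libraries of days 1 and 2 (both replicates 2 of day 1, KO replicate 2 and WT replicate 1 of day 2).

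Wnt11, which acts in kidney branching and heart formation, rose steeply in both genotypes. It held 0.5799 and 0.967 CPM in KO cells and 1.48 and 1.43 CPM in WT cells on day 1, and 2.12 and 1.88 CPM in KO cells and 1.96 and 1.295 CPM in WT cells on day 2. On day 3 it held 6.28 and 19.8 CPM in KO cells and 16.5 and 19.7 CPM in WT cells, and on day 4 40.4 and 24.7 CPM in KO cells and 21.7 and 17.9 CPM in WT cells. KO lay below WT on day 1 and above it on day 4, with overlap between, and no single-day difference was called. The log2 change between day 4 and day 1 was 5.40 ± 0.51 in KO cells and 3.76 ± 0.47 in WT cells, and their difference, 1.64 ± 0.67, was not called (adjusted p = 0.136). Wnt8b was scarce, at 0.193 and 0.368 CPM in KO cells and 0.521 and 0.547 CPM in WT cells on day 1 and 0.415 and 0.601 CPM in KO cells and 0.489 and 0.509 CPM in WT cells on day 2. It was at 0.225 and 0.0969 CPM in KO cells and 0.554 and 0.273 CPM in WT cells on day 3, and no count was found in either KO library of day 4, against 0.1796 and 0.143 CPM in WT cells. It was called lower over the 4 days (adjusted p = 0.0276), a call lost in 10 of 20 alternatives. No fold is given, because of the KO libraries without a count on day 4.

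Wnt2b, Wnt10b and Wnt5a, like Wnt4, Wnt5b, Wnt9a and Wnt11 above, were called at the endpoint but on no single day of the course. Wnt2b, a relative of Wnt2, held 0.889 and 0.4605 CPM in KO cells and 1.04 and 1.304 CPM in WT cells on day 1, and 0.706 and 1.28 CPM in KO cells and 0.326 and 0.231 CPM in WT cells on day 2. It held 2.03 and 7.46 CPM in KO cells and 1.85 and 1.37 CPM in WT cells on day 3, and 17.6 and 6.99 CPM in KO cells and 5.84 and 1.503 CPM in WT cells on day 4 (1.76 ± 0.65, adjusted p = 0.133). KO lay below WT on day 1 and above it on the other 3 days, without overlap, and the replicates of day 4 differed widely in both genotypes. Wnt10b held 0.271 and 0 CPM in KO cells and 0.361 and 0.841 CPM in WT cells on day 1, and 0.914 and 2.57 CPM in KO cells and 0.597 and 0.3701 CPM in WT cells on day 2. It held 5.07 and 10.3 CPM in KO cells and 7.21 and 1.78 CPM in WT cells on day 3, and 22.7 and 20.4 CPM in KO cells and 8.08 and 9.88 CPM in WT cells on day 4 (1.26 ± 0.60, adjusted p = 0.263). KO lay below WT on day 1 and above it on days 2 and 4, and the groups overlapped on day 3. Wnt5a held 0.271 and 0.2302 CPM in KO cells and 0.1602 and 0.126 CPM in WT cells on day 1, and 0.665 and 1.203 CPM in KO cells and 0.543 and 0.7402 CPM in WT cells on day 2. It held 3.04 and 7.75 CPM in KO cells and 5.54 and 4.03 CPM in WT cells on day 3, and 19.4 and 11.8 CPM in KO cells and 15.8 and 8.95 CPM in WT cells on day 4. The groups were apart on day 1 alone, at values under 1 CPM.

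**Figure D2:**
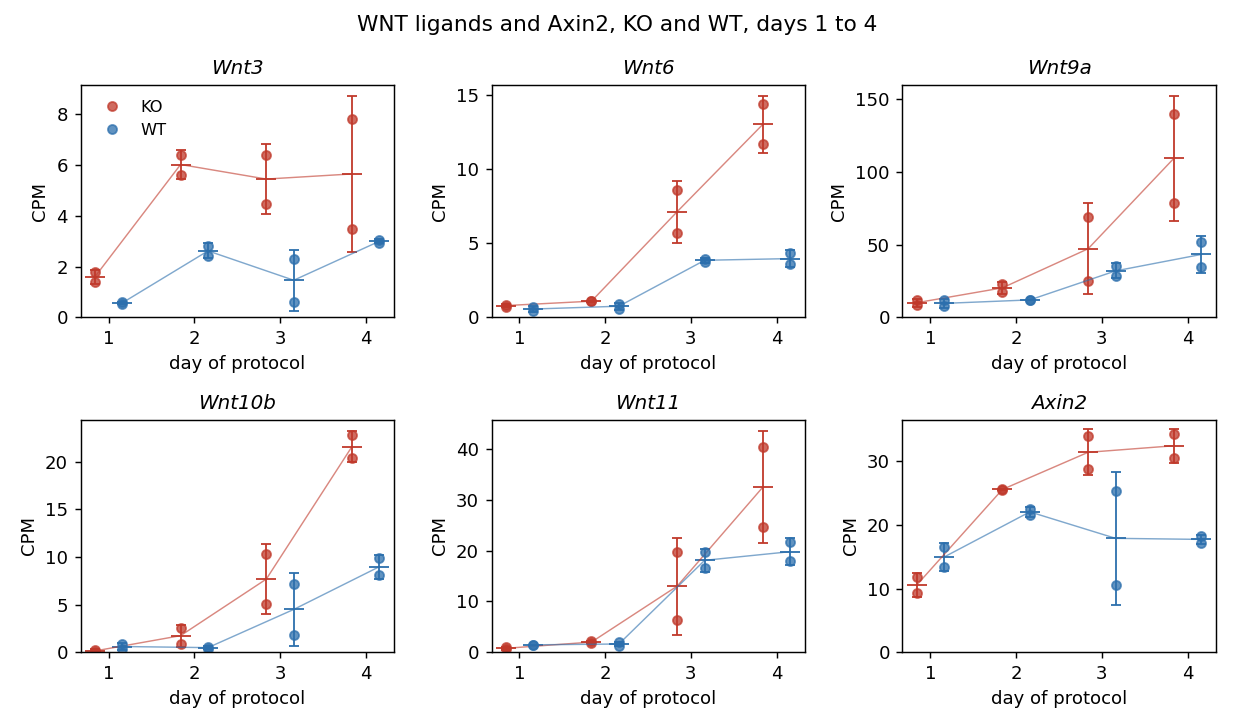
CPM of 5 WNT ligands and Axin2 (panels) by day of the protocol, KO in red and left of WT in blue, with a point per library and the mean and SD of 2 libraries as bars. Wnt6 on day 4 is at 14.4 and 11.7 CPM in KO cells, above the 3.59 and 4.37 CPM of WT cells, and Axin2 is above WT in both KO libraries on days 2, 3 and 4.

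At diff_XEN the ligands differed far more. All 13 tested ligands had a positive log2 fold change and 8 of them were called higher in KO cells. Wnt2, Wnt3, Wnt5b, Wnt7a and Wnt10b were scarce in WT libraries and passed the expression filter only because of the KO libraries. The direction of those genes was thus set by the filter. Summed over the 19 genes, ligand transcripts reached 677 CPM in clone C4 and 476 CPM in clone 5-3, against 86.2 and 50.7 CPM in WT diff_XEN libraries and 24.0 and 4.22 CPM in WT mESC libraries. Wnt9a made up the largest share, at 356 and 205 CPM in KO libraries, against 19.7 and 8.01 CPM in WT libraries, with a log2 fold change of 4.36 ± 0.54 (adjusted p = 0.00371). Wnt2b held 86.5 and 68.1 CPM in KO libraries and 2.73 and 1.83 CPM in WT libraries (5.10 ± 0.29, adjusted p = 0.00224). Both ligands were well separated between genotypes, and the calls held in all alternatives.

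Wnt10b, a ligand that restrains adipocyte formation, stood at 32.3 and 13.5 CPM in KO libraries, against 0.4600 and 0.246 CPM in WT libraries. Its log2 fold change, 6.01 ± 0.61, was the largest among the tested genes (adjusted p = 0.00279). The filter set its direction, as given above, and the size of the fold rests on low WT values and is uncertain. Wnt4 stood at 62.6 and 104 CPM in KO libraries, against 22.8 and 11.9 CPM in WT libraries (2.30 ± 0.42, adjusted p = 0.00949). Wnt11 stood at 51.1 and 37.8 CPM in KO libraries, against 12.3 and 7.68 CPM in WT libraries (2.17 ± 0.30, adjusted p = 0.00483). The clones were unequal, with Wnt10b higher in C4 and Wnt4 higher in 5-3, and no KO library reached down to the WT values.

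Wnt3 was at 10.2 and 2.84 CPM in KO libraries and 0.514 and 0.191 CPM in WT libraries (4.18 ± 0.84, adjusted p = 0.0125), a call lost without WT library B. Wnt5b was at 3.76 and 4.98 CPM in KO libraries and 1.06 and 0.301 CPM in WT libraries (2.71 ± 0.66, adjusted p = 0.0217), a call lost without either KO clone. Wnt5a, the main non-canonical ligand, was at 36.9 and 23.2 CPM in KO libraries and 13.4 and 13.4 CPM in WT libraries (1.18 ± 0.26, adjusted p = 0.0173), a call lost without either WT library, without clone C4 and in the fit of all 6 endpoint libraries. These 3 genes were higher in both clones than in both WT libraries, a direction that the filter set for Wnt3 and Wnt5b. Wnt6 and Wnt7a, called on day 4, were at 11.5 and 7.900 CPM and 9.43 and 1.997 CPM in KO libraries, against 3.71 and 0.765 CPM and 1.06 and 0.0547 CPM in WT libraries, and were not called here (adjusted p = 0.0602 and 0.0794). Of the remaining ligands, Wnt2, Wnt7b and Wnt10a were tested and not called, and Wnt1, Wnt3a, Wnt8a, Wnt8b, Wnt9b and Wnt16 were not tested, with at most 0.478 CPM in any diff_XEN library. Among them, Wnt8b was at 0 and 0.145 CPM in KO libraries and 0.0812 and 0.164 CPM in WT libraries.

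The Frizzled genes were all expressed, and Fzd7 was the most abundant per kilobase of exon in every group of the course and in both diff_XEN groups. On day 4 it had 49.5 to 62.8 CPM per kb in KO cells and 44.1 to 62.6 CPM per kb in WT cells, ahead of Fzd2 at 33.4 to 40.4 CPM per kb in KO cells and 14.5 to 17.7 CPM per kb in WT cells. In WT mESC libraries Fzd5 led, with 22.0 to 36.5 CPM per kb. Fzd7 stood at 95.8 and 84.7 CPM in KO cells and 120.3 and 130.2 CPM in WT cells on day 1, and at 89.99 and 91.3 CPM in KO cells and 96.3 and 98.3 CPM in WT cells on day 2. It stood at 174 and 189 CPM in KO cells and 170.0 and 201 CPM in WT cells on day 3, and at 285 and 224 CPM in KO cells and 284 and 199.8 CPM in WT cells on day 4. KO lay slightly below WT on days 1 and 2 and overlapped it later, and none of these differences was called.

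Fzd2 was the receptor that was higher in KO cells on all 4 days. The gene lies on chromosome 11 (102604396 to 102608058, plus strand, GRCm38, ENSMUSG00000050288). It held 11.6 and 19.8 CPM in KO cells and 7.53 and 10.4 CPM in WT cells on day 1, and 44.2 and 53.8 CPM in KO cells and 19.4 and 30.3 CPM in WT cells on day 2. It held 136 and 124 CPM in KO cells and 76.03 and 51.8 CPM in WT cells on day 3, and 148 and 122 CPM in KO cells and 64.7 and 53.3 CPM in WT cells on day 4. Every KO library exceeded both WT libraries of its day. The log2 fold changes of the 4 days were 0.81 ± 0.29, 0.97 ± 0.27, 1.02 ± 0.27 and 1.20 ± 0.27, with adjusted p-values of 0.0695, 0.102, 0.0446 and 0.0160, and their mean was 1.00 ± 0.14 (adjusted p = 0.000230). The mean kept its call in all alternatives. The day 3 call was lost without KO replicate 1, KO replicate 2 or WT replicate 2. It was also lost in the fit of 4 libraries and with the replicate number as a block. The day 4 call was lost without KO replicate 1 or either WT replicate.

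Fzd5, a receptor needed for yolk sac vessels in the mouse, moved the other way. It had 22.1 and 15.98 CPM in KO cells and 28.9 and 32.8 CPM in WT cells on day 1, and 15.2 and 11.9 CPM in KO cells and 19.01 and 18.2 CPM in WT cells on day 2. It had 12.2 and 8.92 CPM in KO cells and 18.02 and 32.4 CPM in WT cells on day 3, and 6.68 and 8.66 CPM in KO cells and 65.01 and 25.7 CPM in WT cells on day 4. KO libraries lay below WT libraries on every day, and the day 4 gap came with a large spread between the WT replicates. The log2 fold change of Fzd5 was -2.55 ± 0.39 on day 4 (adjusted p = 0.00115) and -1.24 ± 0.19 over the 4 days (adjusted p = 0.000527), calls that held in all alternatives. Exons of Fzd5 overlap those of a gene on the opposite strand, as do exons of Axin2, Fzd6, Sfrp2, Wnt5a, Wnt7b and Wnt11, and the strand setting of the counting is not given in the sources used here, so the values of these 7 genes are uncertain to that extent.

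Fzd6, a receptor known for planar polarity and hair patterning, changed sides during the course. On day 1 it was at 10.1 and 5.43 CPM in KO cells and 17.8 and 13.5 CPM in WT cells, and on day 2 at 19.03 and 24.01 CPM in KO cells and 19.3 and 21.00 CPM in WT cells. On day 3 it was at 33.1 and 52.2 CPM in KO cells and 35.1 and 34.5 CPM in WT cells, and on day 4 at 80.7 and 68.97 CPM in KO cells and 54.1 and 38.7 CPM in WT cells. KO was below WT without overlap on day 1 and above it without overlap on day 4. The day 1 difference, -1.01 ± 0.28, was called (adjusted p = 0.0360), and the day 4 difference, 0.69 ± 0.27, was not (adjusted p = 0.155). The log2 change between day 4 and day 1 was 3.26 ± 0.30 in KO cells and 1.57 ± 0.28 in WT cells, and the test of their difference gave 1.70 ± 0.39 (adjusted p = 0.0256). The day 1 call was lost without KO replicate 2 (-0.62 there) or either WT replicate of day 1, and the call of the difference without any 1 of these, KO replicate 1 of day 4 or WT replicate 2 of day 4.

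Fzd8 held 5.53 and 3.91 CPM in KO cells and 3.41 and 3.07 CPM in WT cells on day 1, and 21.4 and 29.7 CPM in KO cells and 11.9 and 19.2 CPM in WT cells on day 2. It held 24.1 and 20.2 CPM in KO cells and 18.02 and 12.3 CPM in WT cells on day 3, and 14.9 and 20.1 CPM in KO cells and 18.05 and 14.03 CPM in WT cells on day 4. The groups overlapped on day 4 alone. Fzd10 held 24.1 and 20.9 CPM in KO cells and 18.9 and 21.96 CPM in WT cells on day 1, and 57.1 and 47.7 CPM in KO cells and 32.5 and 29.4 CPM in WT cells on day 2. It held 23.5 and 14.1 CPM in KO cells and 10.4 and 11.1 CPM in WT cells on day 3, and 6.08 and 10.6 CPM in KO cells and 4.76 and 7.59 CPM in WT cells on day 4. It peaked on day 2 in both genotypes, and KO exceeded WT without overlap on days 2 and 3. Both receptors were called over the 4 days alone, at 0.49 ± 0.14 for Fzd8 (adjusted p = 0.0311) and 0.54 ± 0.14 for Fzd10 (adjusted p = 0.0166), and both calls were lost without day 3. That of Fzd8 was also lost without any 1 of 6 single libraries.

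Fzd1 and Fzd4 were not called on any day. Fzd1 held 1.28 and 0.967 CPM in KO cells and 1.24 and 2.23 CPM in WT cells on day 1, and 3.45 and 4.05 CPM in KO cells and 2.77 and 4.07 CPM in WT cells on day 2. It held 8.004 and 17.5 CPM in KO cells and 20.3 and 16.6 CPM in WT cells on day 3, and 39.6 and 25.5 CPM in KO cells and 40.05 and 21.04 CPM in WT cells on day 4. The groups overlapped on every day. Fzd4 held 4.45 and 2.39 CPM in KO cells and 5.53 and 6.52 CPM in WT cells on day 1, and 7.52 and 12.3 CPM in KO cells and 8.91 and 11.2 CPM in WT cells on day 2. It held 13.2 and 24.3 CPM in KO cells and 20.8 and 14.7 CPM in WT cells on day 3, and 21.5 and 26.8 CPM in KO cells and 22.2 and 24.1 CPM in WT cells on day 4. The groups were apart on day 1 alone, with KO below WT.

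**Figure D3:**
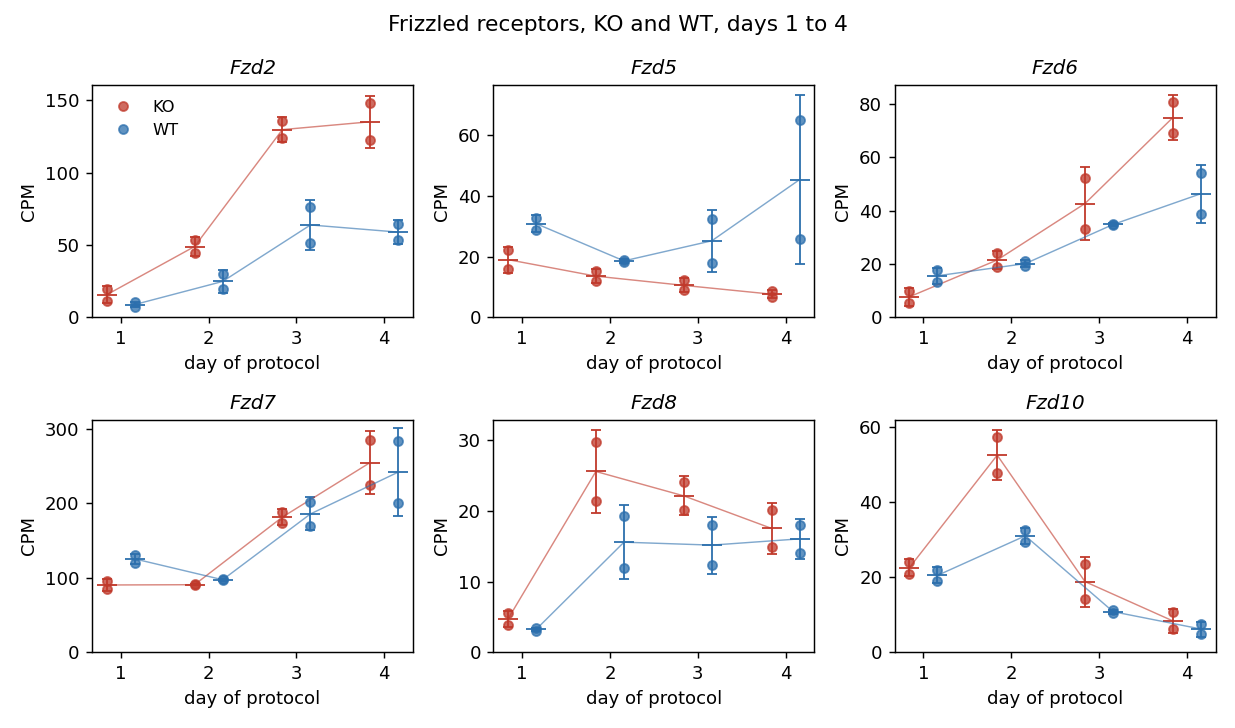
CPM of 6 Frizzled genes (panels) by day, KO in red and left of WT in blue, with a point per library and the mean and SD of 2 libraries as bars. Fzd2 is higher in KO cells on all 4 days, Fzd5 is lower on all 4 days, and Fzd6 lies below WT on day 1 and above it on day 4.

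At diff_XEN 5 of the 10 Frizzled genes were called higher in KO cells and 2 lower. Fzd2 stood at 112 and 125 CPM in KO libraries, against 18.9 and 8.72 CPM in WT libraries (3.13 ± 0.40, adjusted p = 0.00399). Fzd1 stood at 77.99 and 128 CPM in KO libraries, against 25.3 and 19.4 CPM in WT libraries (2.24 ± 0.31, adjusted p = 0.00482). Fzd6 stood at 135 and 132 CPM in KO libraries, against 34.2 and 27.6 CPM in WT libraries (2.14 ± 0.18, adjusted p = 0.00246). The groups were far apart for all 3, and none of these calls was lost in an alternative. Fzd8 was at 16.5 and 16.8 CPM in KO libraries and 4.06 and 3.42 CPM in WT libraries (2.18 ± 0.25, adjusted p = 0.00325). Fzd7 was at 405 and 408 CPM in KO libraries and 302 and 271 CPM in WT libraries (0.53 ± 0.16, adjusted p = 0.0423), a small difference whose call was lost without WT library B, without either clone and in the fit of all 6 endpoint libraries.

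The 2 receptors that were lower at diff_XEN were Fzd5 and Fzd4, which also binds the ligand Norrin. Fzd5 was at 9.36 and 10.04 CPM in KO libraries and 40.8 and 28.1 CPM in WT libraries (-1.80 ± 0.26, adjusted p = 0.00522). Fzd4 was at 17.2 and 31.5 CPM in KO libraries and 52.98 and 70.9 CPM in WT libraries (-1.30 ± 0.35, adjusted p = 0.0285), a call lost without WT library B or clone C4. Neither gene overlapped between genotypes. Fzd10 was at 10.6 and 3.44 CPM in KO libraries and 2.65 and 0.8201 CPM in WT libraries, and Fzd3, Fzd9 and Fzd10 were not called.

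Dkk1 was lower in KO cells on every day and at the endpoint. It lies on chromosome 19 (30545863 to 30549665, minus strand, GRCm38, ENSMUSG00000024868) and encodes a secreted antagonist of the LRP co-receptors that is needed for head formation in the mouse. On day 1 it was at 0.155 and 0.0921 CPM in KO cells and 1.72 and 1.598 CPM in WT cells, and on day 2 at 1.74 and 2.41 CPM in KO cells and 9.29 and 10.04 CPM in WT cells. On day 3 it was at 11.2 and 14.4 CPM in KO cells and 45.9 and 36.3 CPM in WT cells, and on day 4 at 15.8 and 19.1 CPM in KO cells and 59.2 and 71.6 CPM in WT cells. The genotypes were far apart on every day, and Dkk1 nevertheless rose with time in both. The KO values of day 1 rest on few reads, down to 2 counts in a library, so the size of the day 1 difference is uncertain. The difference on day 1 was -3.65 ± 0.40 (adjusted p = 0.000460), on day 2 -2.21 ± 0.23 (adjusted p = 0.000334), on day 3 -1.69 ± 0.21 (adjusted p = 0.000388) and on day 4 -1.90 ± 0.21 (adjusted p = 4.95e-05). Of these calls, that of day 3 alone was lost, in the fit of 4 libraries (the adjusted p was 0.0838 there).

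Between day 1 and day 4 Dkk1 rose by 7.04 ± 0.34 in KO cells, from those few reads, and by 5.29 ± 0.25 in WT cells. The difference of these changes, 1.75 ± 0.48, was called (adjusted p = 0.0458), but the call was lost in 9 of 13 alternatives. These were the DESeq2 Wald test, the replicate number as a block and 7 of the 8 single libraries left out in turn. At diff_XEN Dkk1 was at 1.03 and 2.08 CPM in KO libraries, against 80.7 and 37.8 CPM in WT libraries and 0.696 and 2.001 CPM in WT mESC libraries. KO values were close to mESC values. The KO versus WT difference was -5.14 ± 0.55 (adjusted p = 0.00297), the lowest log2 fold change among the 30 tested genes, and it held in all alternatives.

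The windows before the transcription starts of 4 genes are shown here because they stand for the opposite directions seen at the endpoint, Dkk1 and Fzd5 lower and Axin2 and Wnt6 higher in KO libraries, the last not called there. Each is the 250 bases before the start in RefSeq (build GRCm38.p6), written 5′ to 3′ on the strand of the gene, with capitals marking TCF motifs. The windows lie at chr19:30549497-30549746 (minus strand) for Dkk1, chr1:64737751-64738000 (minus strand) for Fzd5, chr11:108920099-108920348 (plus strand) for Axin2 and chr1:74771642-74771891 (plus strand) for Wnt6.
Dkk1: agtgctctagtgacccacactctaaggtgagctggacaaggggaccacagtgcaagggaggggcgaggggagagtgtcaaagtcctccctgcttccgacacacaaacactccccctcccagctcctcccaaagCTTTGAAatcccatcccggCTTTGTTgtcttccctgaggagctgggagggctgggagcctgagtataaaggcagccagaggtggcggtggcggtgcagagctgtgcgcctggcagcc
Fzd5: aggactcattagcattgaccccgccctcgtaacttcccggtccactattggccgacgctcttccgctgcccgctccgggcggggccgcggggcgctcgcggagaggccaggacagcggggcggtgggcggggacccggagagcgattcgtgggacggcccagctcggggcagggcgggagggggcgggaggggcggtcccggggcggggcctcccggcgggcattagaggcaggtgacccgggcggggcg
Axin2: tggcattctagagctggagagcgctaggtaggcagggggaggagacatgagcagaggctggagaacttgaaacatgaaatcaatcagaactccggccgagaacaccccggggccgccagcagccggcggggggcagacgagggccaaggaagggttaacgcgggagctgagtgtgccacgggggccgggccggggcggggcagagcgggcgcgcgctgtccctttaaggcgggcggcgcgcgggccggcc
Wnt6: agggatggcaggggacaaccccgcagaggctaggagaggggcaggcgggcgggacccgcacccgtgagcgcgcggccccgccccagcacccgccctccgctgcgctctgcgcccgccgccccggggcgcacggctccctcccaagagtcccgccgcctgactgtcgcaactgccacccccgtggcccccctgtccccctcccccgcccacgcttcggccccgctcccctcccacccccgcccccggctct
The TCF motif was searched as the letters CTTTG followed by an A or a T and then by an A or a T again, and a GATA motif as an A or a T followed by GATAA, both on either strand. Dkk1 had 2 TCF motifs, CTTTGAA at 117 to 111 bases and CTTTGTT at 98 to 92 bases before the RefSeq start, and no GATA motif. The gene annotation used above puts the 5′ end of Dkk1 at 30549665, inside this window, so both motifs lie within the gene by that annotation. The windows of Fzd5, Axin2 and Wnt6 had neither. Of the 39 genes, 27 had a promoter in the table, with 30 windows in all. A TCF motif was in 13.3% of these windows and in 14.8% of all 32851 windows of this length, and a GATA motif in 13.3% and 16.6%.

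Dkk2 and Dkk3 did not follow Dkk1. Dkk2 had no count in any library of day 1, and on day 2 it was at 0.125 and 0.0802 CPM in KO cells, against 0 and 0.139 CPM in WT cells. It was at 1.65 and 12.4 CPM in KO cells and 7.76 and 3.82 CPM in WT cells on day 3, and at 62.2 and 38.5 CPM in KO cells and 28.6 and 11.5 CPM in WT cells on day 4. Against a floor of 3 counts over the day 1 group, day 4 was at least 781-fold higher in KO cells and at least 311-fold higher in WT cells. The genotypes overlapped on day 3, and the day 4 difference, 1.33 ± 0.74, was not called (adjusted p = 0.361).

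Dkk3, a divergent member of the family, held 4.99 and 3.22 CPM in KO cells and 7.21 and 7.19 CPM in WT cells on day 1, and 32.3 and 39.5 CPM in KO cells and 34.3 and 42.9 CPM in WT cells on day 2. It held 44.2 and 53.3 CPM in KO cells and 52.2 and 20.3 CPM in WT cells on day 3, and 78.00 and 84.6 CPM in KO cells and 39.3 and 48.7 CPM in WT cells on day 4. KO was below WT on day 1 and above it on day 4, without a call on any day. At diff_XEN Dkk2 was at 38.7 and 19.1 CPM in KO libraries and 3.44 and 0.875 CPM in WT libraries (3.75 ± 0.72, adjusted p = 0.0109), and Dkk3 at 73.5 and 57.96 CPM in KO libraries and 13.6 and 14.1 CPM in WT libraries (2.27 ± 0.19, adjusted p = 0.00243). Both were higher in KO libraries without overlap, and both calls held in all alternatives. Per kilobase of exon, Dkk3 led the family in KO diff_XEN libraries, at 17.3 to 21.9 CPM per kb, and Dkk1 led in WT diff_XEN libraries, at 15.6 to 33.2 CPM per kb.

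The Sfrp genes differed among themselves. Sfrp1 was at 35.99 and 31.8 CPM in KO cells and 23.7 and 23.5 CPM in WT cells on day 1, and at 38.3 and 39.97 CPM in KO cells and 38.7 and 33.7 CPM in WT cells on day 2. It was at 31.04 and 29.6 CPM in KO cells and 48.2 and 39.3 CPM in WT cells on day 3, and at 39.1 and 46.02 CPM in KO cells and 135 and 63.9 CPM in WT cells on day 4. KO was above WT on day 1 and below it on days 3 and 4, and the WT replicates of day 4 differed more from each other than the lower one did from KO. The log2 fold change of Sfrp1 on day 4 was -1.22 ± 0.25 (adjusted p = 0.00790), a call lost without KO replicate 1 or WT replicate 1 of day 4 (-0.58 without the WT one) and in the fit of 4 libraries. Its change between day 4 and day 1 was 0.33 ± 0.25 in KO cells and 2.07 ± 0.26 in WT cells, a difference of -1.75 ± 0.35 (adjusted p = 0.0143), lost without WT replicate 2 of day 1 or KO replicate 1 of day 4, and -1.14 without WT replicate 1 of day 4.

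Sfrp2 held 24.3 and 23.3 CPM in KO cells and 19.5 and 16.3 CPM in WT cells on day 1, and 39.6 and 36.4 CPM in KO cells and 27.1 and 27.2 CPM in WT cells on day 2. It held 39.6 and 15.9 CPM in KO cells and 14.9 and 11.5 CPM in WT cells on day 3, and 11.7 and 12.1 CPM in KO cells and 10.5 and 10.02 CPM in WT cells on day 4. KO exceeded WT on every day, by little except on day 3 in KO replicate 1. The log2 fold change was 1.09 ± 0.30 on day 3 (adjusted p = 0.0495) and 0.55 ± 0.15 over the 4 days (adjusted p = 0.0187). Without KO replicate 1 the day 3 value dropped to 0.29 and the call was lost, as it was without WT replicate 2 and in the fit of 4 libraries, and without day 3 the call over the days was lost.

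Sfrp5, the third abundant member, was at 7.69 and 10.7 CPM in KO cells and 6.09 and 9.84 CPM in WT cells on day 1, and at 33.9 and 55.6 CPM in KO cells and 44.6 and 68.1 CPM in WT cells on day 2. It was at 24.1 and 29.4 CPM in KO cells and 40.7 and 14.5 CPM in WT cells on day 3, and at 18.1 and 17.4 CPM in KO cells and 61.4 and 36.3 CPM in WT cells on day 4. The groups were apart on day 4 alone, where the difference of -1.46 ± 0.44 was not called (adjusted p = 0.0719). At diff_XEN Sfrp5 was at 3.08 and 8.57 CPM in KO libraries and 27.1 and 16.5 CPM in WT libraries (-1.84 ± 0.54, adjusted p = 0.0392), a call lost without either WT library or clone C4, and a value of -2.81 without clone 5-3. Sfrp2 was at 8.61 and 8.02 CPM in KO libraries and 1.597 and 0.629 CPM in WT libraries (2.92 ± 0.51, adjusted p = 0.00835). Sfrp1, at 107 and 258 CPM in KO libraries and 83.8 and 33.6 CPM in WT libraries, was above WT in both clones and was not called (1.67 ± 0.59, adjusted p = 0.0649).

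**Figure D4:**
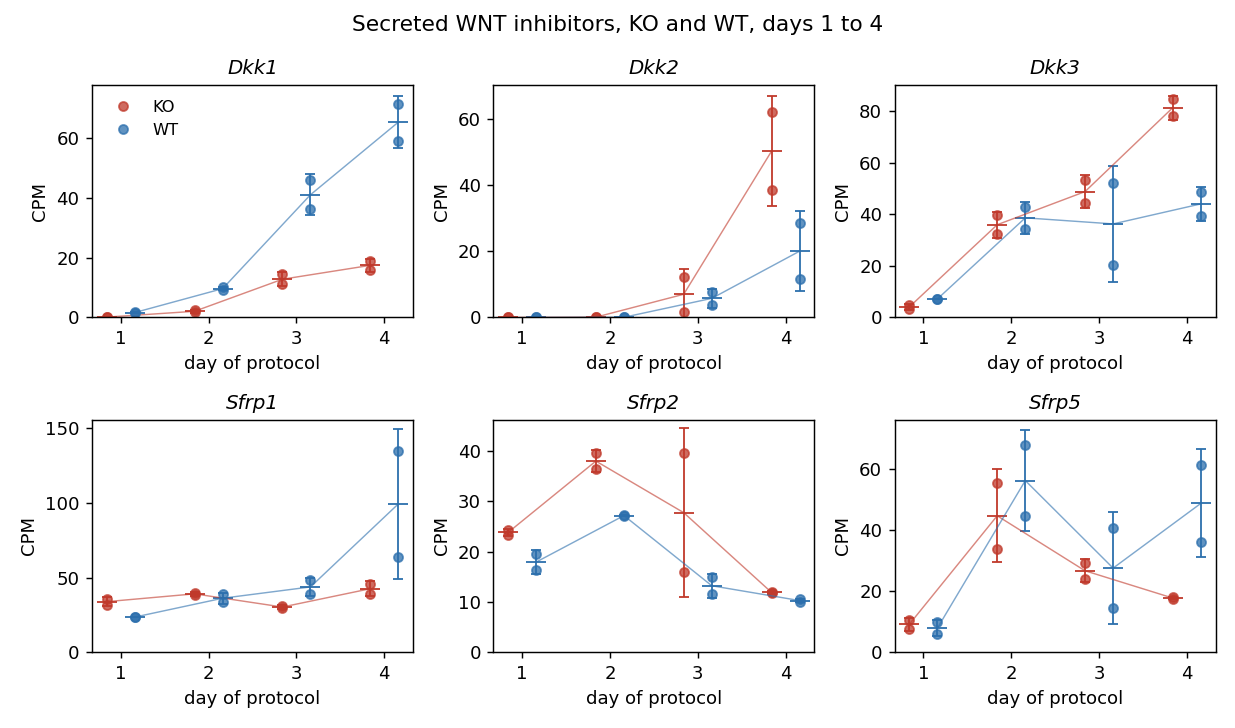
CPM of 3 Dkk and 3 Sfrp genes (panels) by day, KO in red and left of WT in blue, with a point per library and the mean and SD of 2 libraries as bars. Dkk1 stays below WT in both KO libraries on all 4 days, Dkk2 and Dkk3 are above WT on day 4, and Sfrp1 and Sfrp5 are below it on day 4.

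Wif1, whose product binds WNT ligands, was scarce throughout. It was at 0.5799 and 0.0921 CPM in KO cells and 0.881 and 0.673 CPM in WT cells on day 1, and at 0.831 and 0.521 CPM in KO cells and 1.19 and 1.39 CPM in WT cells on day 2. It was at 0.413 and 0.388 CPM in KO cells and 0.554 and 0.615 CPM in WT cells on day 3, and at 0.375 and 0.309 CPM in KO cells and 0.449 and 0.215 CPM in WT cells on day 4. KO lay below WT on days 1, 2 and 3 without overlap and without a call. In diff_XEN it was at 0.205 and 0.463 CPM in KO libraries and 0.216 and 0.0547 CPM in WT libraries, and it was not tested there. Sfrp4 and Dkk4 were also near the lower limit late in the course, Sfrp4 at no more than 0.150 CPM in any day 4 library and Dkk4 with no count there.

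Axin2 (chromosome 11, 108920349 to 108950783, plus strand, GRCm38, ENSMUSG00000000142) was not called on any single day of the course and was called at the endpoint. It was at 11.9 and 9.26 CPM in KO cells and 13.4 and 16.5 CPM in WT cells on day 1, and at 25.6 and 25.7 CPM in KO cells and 22.6 and 21.6 CPM in WT cells on day 2. It was at 34.01 and 28.9 CPM in KO cells and 25.3 and 10.5 CPM in WT cells on day 3, and at 30.6 and 34.4 CPM in KO cells and 17.2 and 18.3 CPM in WT cells on day 4. KO was below WT on day 1 and above it on the other 3 days, without overlap on any day. The day 4 difference was 0.87 ± 0.29 (adjusted p = 0.0885) and came under the threshold in 3 of 9 alternatives. Between day 1 and day 4 Axin2 rose in KO cells, by 1.62 ± 0.29 (adjusted p = 0.000228), whereas in WT cells the change of 0.25 ± 0.29 was not called (adjusted p = 0.502). The difference of these changes, 1.37 ± 0.41, was just above the threshold (adjusted p = 0.0573), and passed it in 4 of 13 alternatives.

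At diff_XEN Axin2 was at 29.5 and 24.9 CPM in KO libraries, against 4.87 and 4.46 CPM in WT libraries and 10.7 and 3.84 CPM in WT mESC libraries. Both clones exceeded all 4 WT libraries. The KO versus WT difference was 2.56 ± 0.22 (adjusted p = 0.00246), a call that held in all alternatives.

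**Figure D5:**
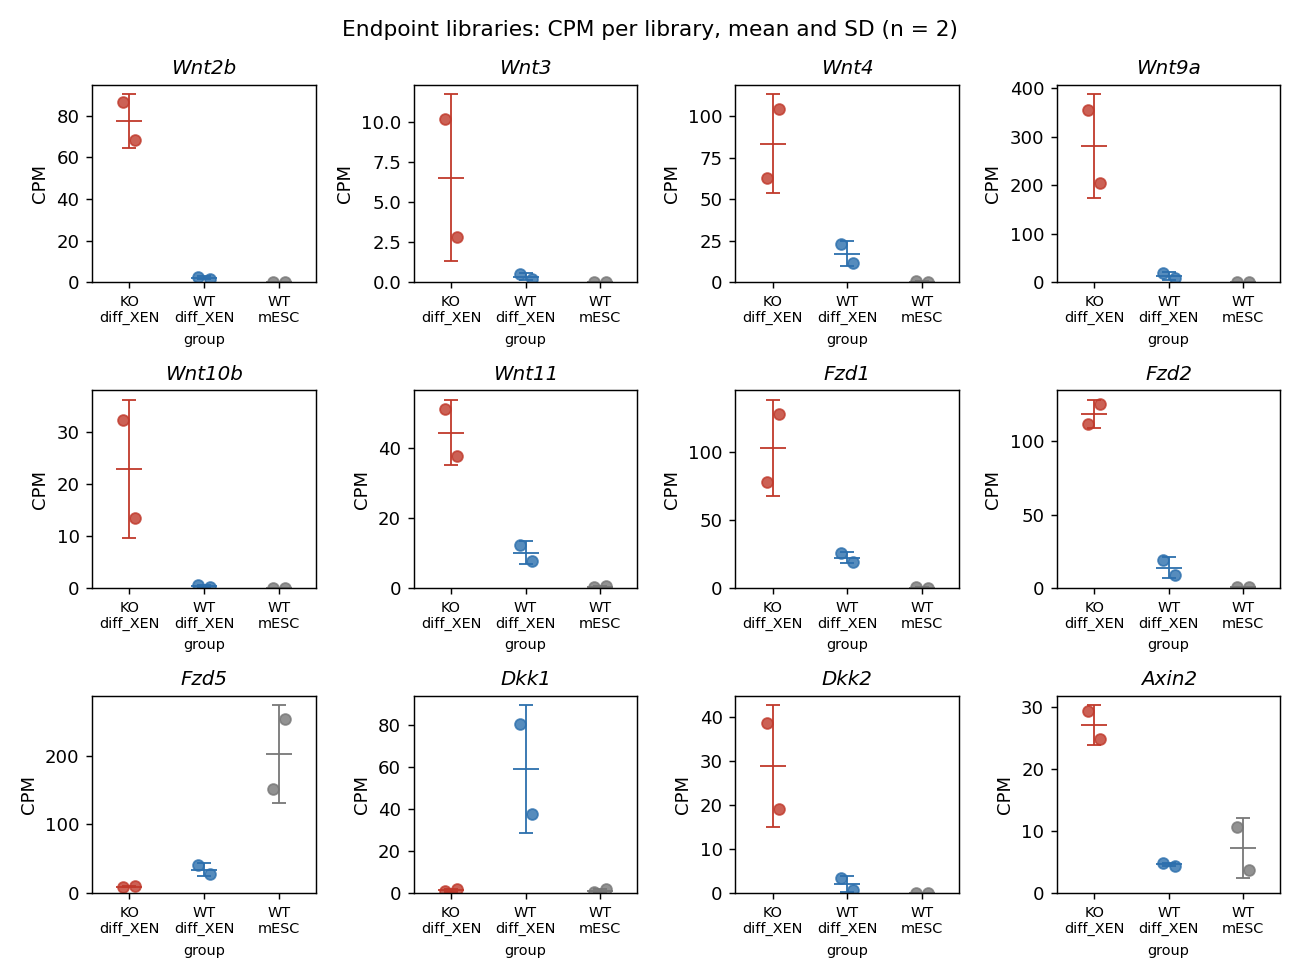
CPM of 12 genes (panels) in KO diff_XEN (red), WT diff_XEN (blue) and WT mESC libraries (grey), with a point per library and the mean and SD of 2 libraries as bars. Wnt9a is at 356 and 205 CPM in KO diff_XEN libraries, against 19.7 and 8.01 CPM in WT diff_XEN libraries, and Dkk1 and Fzd5 are the panels in which KO diff_XEN lies below WT diff_XEN.

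Along the protocol most of these genes changed in both genotypes. Between day 4 and day 1, 23 of 35 tested genes rose and 8 fell in KO cells, where 66.3% of all genes were called (33.3% higher and 32.9% lower). In WT cells 20 rose and 7 fell, where 48.5% of all genes were called (26.9% higher and 21.6% lower). Among the ligands 12 of 16 rose in KO cells and 9 of 16 in WT cells, and among the receptors 7 of 10 rose in KO cells and 6 of 10 in WT cells. Wnt5a changed by 5.92 ± 0.56 in KO cells and 6.36 ± 0.61 in WT cells, and Fzd1 by 4.84 ± 0.47 in KO cells and 4.13 ± 0.45 in WT cells. Wnt3a, a ligand of the tail bud, was lower on day 4, with a change of -2.11 ± 0.62 in KO cells and -2.65 ± 0.67 in WT cells, and so was Wnt8a, with -2.04 ± 0.45 in KO cells and -1.33 ± 0.43 in WT cells. Some of these calls rested on single libraries, since that of Wnt3a was lost without replicate 1 of day 4 in either genotype, and that of Wnt8a in WT cells without either WT library of day 1 or WT replicate 1 of day 4. Differences between the genotypes in these changes were called for Fzd6, Dkk1 and Sfrp1 (6.42% of all genes were called, 2.59% higher and 3.83% lower).

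Summed over the 19 ligands, KO libraries held 53.7 and 62.3 CPM on day 1 and 326 and 219 CPM on day 4, and WT libraries held 51.9 and 49.0 CPM on day 1 and 154 and 122 CPM on day 4. The 10 Frizzled genes summed to 620.0 and 537 CPM in KO libraries and 567 and 403 CPM in WT libraries on day 4. At the endpoint the Frizzled sum was 797 and 867 CPM in KO diff_XEN libraries and 488 and 439 CPM in WT diff_XEN libraries. The KO sums of ligands exceeded the WT sums without overlap on days 1, 2 and 4 and overlapped them on day 3. The sums of receptors overlapped on day 4 alone. On day 1 they were lower in KO libraries, at 183 and 163 CPM, against 217 and 235 CPM in WT libraries. On days 2 and 3 and at diff_XEN they were higher in KO libraries without overlap.

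WT diff_XEN libraries were also set against WT mESC libraries. Of 33 tested genes, 18 were higher and 5 lower in diff_XEN, where 52.5% of all genes were called (27.2% higher and 25.3% lower). A gene scarce in 1 of these groups could pass the filter here through other libraries alone, which weighs on its direction. Of the genes named below, Wnt4 and Fzd1 passed only through diff_XEN libraries and Sfrp4 only through mESC libraries. Wnt4 was at 22.8 and 11.9 CPM in diff_XEN and 0.552 and 0.0822 CPM in mESC libraries (5.72 ± 0.72, adjusted p = 0.000844). Fzd1 was at 25.3 and 19.4 CPM in diff_XEN and 0.4799 and 0.0548 CPM in mESC libraries (6.32 ± 0.68, adjusted p = 0.000471). Dkk1 was at 80.7 and 37.8 CPM in diff_XEN and 0.696 and 2.001 CPM in mESC libraries (5.46 ± 0.67, adjusted p = 0.000773). The values moved with the mESC library used, to 7.67 for Wnt4 and 8.59 for Fzd1 without replicate 1, and to 4.96 and 5.53 without replicate 2. For Dkk1 they were 4.91 without replicate 1 and 6.40 without replicate 2. Fzd5 went the other way, at 40.8 and 28.1 CPM in diff_XEN and 152 and 253 CPM in mESC libraries (-2.55 ± 0.32, adjusted p = 0.000831), as did Sfrp4, at 0.0541 and 0.219 CPM in diff_XEN and 10.2 and 9.62 CPM in mESC libraries (-6.15 ± 0.66, adjusted p = 0.000471). The 2 mESC libraries differed from each other, with Wnt7b at 15.8 and 0.8497 CPM.

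The other genes of the pathway were followed with a list of 62, none of them among the 39. On day 1, 4 of 60 tested were higher and 7 lower in KO cells, where 6.89% of all genes were higher and 6.71% lower. On day 2 there were 4 higher and 0 lower, where 0.774% and 0.853% of all genes were. On day 3 there were 7 higher and 0 lower, where 1.83% and 3% of all genes were. On day 4 there were 7 higher and 1 lower, where 1.99% and 5.05% of all genes were. Over the 4 days 18 of the 60 were higher and 3 lower, where 7.52% of all genes were higher and 10% lower. At diff_XEN 22 of 56 were higher and 6 lower, where 22.1% of all genes were higher and 24.9% lower. The lower gene of day 4 was Porcn, which adds the lipid to WNT ligands, at 35.5 ± 10.2 CPM in KO cells and 86.7 ± 19.6 CPM in WT cells (SD, n = 2 each, log2 fold change -1.29 ± 0.19, adjusted p = 0.000716). At diff_XEN Wls, the carrier that takes ligands to the cell surface, was at 602 ± 74.96 CPM in KO libraries and 110.4 ± 4.82 CPM in WT libraries (2.47 ± 0.18, adjusted p = 0.00224). The co-receptor gene Ptk7 was at 534 ± 3.79 CPM in KO libraries and 76.7 ± 21.4 CPM in WT libraries (2.83 ± 0.25, adjusted p = 0.00246). The calls of Porcn, Wls and Ptk7 held in all alternatives run. Of the lower genes of day 1, Lrp5 was at 45.4 ± 4.03 CPM in KO cells and 81.1 ± 12.5 CPM in WT cells (-0.84 ± 0.19, adjusted p = 0.0198). Gsk3b was at 43.2 ± 10.6 CPM in KO cells and 76.2 ± 4.40 CPM in WT cells on that day (-0.82 ± 0.19, adjusted p = 0.0218). Both calls were lost without KO replicate 2 or WT replicate 2, and that of Gsk3b also without WT replicate 1.

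Among 10 reported target genes of β-catenin signalling other than Axin2, 3 were called higher in KO cells on day 1, 3 on day 2, 4 on day 3 and 3 on day 4, where 6.89%, 0.774%, 1.83% and 1.99% of all genes were. Over the 4 days 6 of 10 were higher, where 7.52% of all genes were, with a median log2 fold change of 0.59, against -0.01 for all genes. Ccnd1, which encodes cyclin D1, was at 58.0 ± 11.8 CPM in KO cells and 19.4 ± 7.68 CPM in WT cells on day 3 (1.58 ± 0.22, adjusted p = 0.000938), lost in the fit of 4 libraries, and differed by 1.09 ± 0.11 over the 4 days (adjusted p = 8.75e-06). Cdx2 was at 3.64 ± 1.49 CPM in KO cells and 0.760 ± 0.0552 CPM in WT cells on day 1 (2.25 ± 0.41, adjusted p = 0.00958), a call lost without KO replicate 2 or WT replicate 2, and had no count in either KO library at diff_XEN. Notum, an enzyme that removes the lipid from WNT ligands, was at 28.0 ± 4.05 CPM in KO cells and 5.48 ± 0.102 CPM in WT cells on day 1 (2.35 ± 0.43, adjusted p = 0.00933), a call lost without the same libraries. At diff_XEN, where 8 of the 10 targets were tested, 3 were higher and 1 lower in KO libraries, where 22.1% of all genes were higher and 24.9% lower. Lower there were also Tcf7l2, a TCF factor, at 22.1 ± 4.52 CPM in KO libraries and 78.2 ± 30.4 CPM in WT libraries (-1.79 ± 0.33, adjusted p = 0.00985), a call lost without clone C4, and Frzb, another Frizzled-related inhibitor, at 1.96 ± 1.90 CPM in KO libraries and 23.9 ± 12.6 CPM in WT libraries (-3.47 ± 0.78, adjusted p = 0.0178), a call lost without WT library B and with no expression filter, and a value of -5.25 without clone 5-3.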

How the data were processed

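The files held read counts per gene as deposited by the authors, as whole numbers with a different total in each library. STAR 2.5.0c, featureCounts 1.4.5-p1 and the mm10 build are named in the submitters' processing notes. Which annotation release was counted, and with which strand setting, is not given in the sources used here. Of 24 samples, the 22 libraries in 11 groups of 2 described here were used. Not analysed here were 2 samples of KO mESCs, and 3 columns of the series table, which no label ties to a sample, were used in no step.

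Counts were tested in R 4.3.3 with edgeR 4.0.16 (TMM scaling, default filter by group, robust quasi-likelihood fit, group means without covariates). The 16 course libraries formed 1 fit, the 4 diff_XEN libraries another, and the 6 endpoint libraries one more, which joined tables holding the same identifiers. Course and endpoint levels are on separate scales and were not compared. CPM use TMM-scaled totals, endpoint CPM those of the 6-library fit. Groups came from the labels and the clones from column names. Alternatives were DESeq2 size factors, the Wald test of DESeq2 1.42.0, no filter, the replicate number as a block, smaller or larger fits and leaving out each library, where a group of 1 library borrows its spread from the others. The mean of days 1, 2 and 4 was added after the data were seen. The pipeline was tested on simulated counts.

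The genes and lists were chosen with earlier results of these data known. Values in every course and diff_XEN library were given for genes called between genotypes, or in the difference of changes, and for the 3 most abundant of each family. Of the other pathway genes, up to 4 per comparison could be named, 2 with the smallest p in each direction. Names outside this rule illustrate counts and were chosen after their values were seen. Floors (3 counts over a group) cover counting error only. Replicates were never the same library, since their counts differed beyond sampling noise in each group (chi-square divided by its degrees of freedom 12.6 to 149, genes with 20 counts or more). Promoter windows came from a RefSeq table (GRCm38.p6), gene positions from a GRCm38 annotation.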

Additional observations from a re-analysis of the deposited data

Results flagged for a closer look

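The change between day 1 and day 4 differed between KO and WT cells for 3 of the 35 tested genes by the test of the difference itself (edgeR's quasi-likelihood test, Benjamini-Hochberg adjustment over all genes). That is 8.57% of them, near the 6.42% of all genes called in this comparison. Fzd6 rose by 1.70 more on the log2 scale in KO cells than in WT cells (adjusted p = 0.0256). Dkk1 rose by 1.75 more in KO cells (adjusted p = 0.0458), from a day 1 level of at most 0.155 CPM in KO libraries, against 1.60 CPM or more in WT libraries. Sfrp1 had a difference of -1.75, that is, a smaller rise in KO cells (adjusted p = 0.0143). Each of the 3 calls was lost without at least 2 of the 8 single libraries left out in turn. Groups held 2 libraries, so single libraries could not be tested as outliers.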

How the results depend on the processing

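No log2 fold change given for a single gene turned its direction under any alternative run. Of the numbers of these genes called, those of the mean of days 1 to 4, the change over the course in either genotype and both endpoint comparisons stayed within 1.5 times the main number under each alternative planned for all libraries. The exception was the mean of days 1, 2 and 4, added after the data were seen, with 5 calls, against 12 with day 3. With the DESeq2 Wald test, 4 genes were called on day 1, 2 on day 2, 10 on day 4 and 7 in the difference of changes, against 2, 1, 6 and 3 in the edgeR test. Those are 11.4%, 5.71%, 28.6% and 20% of these genes tested, against 17.6%, 3.24%, 9.46% and 11.4% of all genes. With no expression filter, 9 were called on day 1, 8 on day 2 and 9 on day 3, where the filter left 4 on day 3. On day 4 there were 15, and 13 in the difference of changes. Those are 23.1%, 20.5%, 23.1%, 38.5% and 33.3% of these genes tested, against 13%, 3.78%, 7.03%, 7.32% and 9.35% of all genes. In a fit of the 4 compared libraries alone, 6 were called on day 1, or 20%, where 17% of all genes were. On day 2 there were 8, or 24.2%, where 8.7% of all genes were called. On day 3 there were 0 (edgeR, with 8 at an unadjusted p below 0.05), where that fit called 35 genes in all. On day 4 there were 9, or 29%, where 6.87% of all genes were called. In a fit of the 8 libraries of days 1 and 4 the difference of changes had 10, or 28.6%, where 8.29% of all genes were called. The cause of these shifts was not tested.

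Leaving out each library in turn gave 1 to 4 calls on day 1, 1 on day 2 each time, 1 to 10 on day 3, 3 to 5 on day 4, 8 to 16 over the mean of days, 0 to 7 in the difference of changes (0 in edgeR without WT replicate 2 of day 1 or KO replicate 1 of day 4, with 11 and 10 at an unadjusted p below 0.05) and 16 to 22 at KO versus WT diff_XEN. It gave 27 to 31 calls for KO day 4 versus day 1, 23 to 27 for WT day 4 versus day 1, and 19 to 24 for WT diff_XEN versus mESC. The deviations of same-numbered libraries correlated at -0.18 to 0.39 over 28 pairs of groups, and 7 of the 28 were over 0.1. The replicate numbers were therefore not used as pairs in the main tests. This check cannot exclude that some same-numbered libraries share a culture or batch. With the replicate number as a block, 2 genes were called on day 1, 1 on day 2, 3 on day 3 and 6 on day 4. Of all genes 10.6%, 1.41%, 4.33% and 6.28% were called there. There were 11 calls over the mean of days, where 16.2% of all genes were called. The changes of WT and KO cells over the course had 26 and 30, where 47.4% and 65.4% of all genes were called. The difference of changes had 2, where 4.72% of all genes were called. Lost with the block were the calls of Fzd2 on day 3, Wnt9a over the mean of days and Dkk1 in the difference of changes, and those of Wnt1 in KO cells and Wnt8b in WT cells over the course. The endpoint columns carry no replicate numbers. No paired analysis was possible there because of that.

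With 2 libraries per group, and with day 3 the least alike within groups, the single-day calls of Wnt3, Wnt7a, Fzd2, Fzd6, Sfrp1 and Sfrp2 rested on particular libraries, as given beside them. Genes under about 1 CPM, such as Wif1, Wnt8b and Dkk4, rest on few counts, as do the KO values of Dkk1 on day 1.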

Other observations

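Some members were called between KO and WT cells in none of the comparisons made. Wnt1, which acts in midbrain formation, was at 1.35 and 0.6805 CPM in KO cells on day 4 and at 0 and 0.429 CPM in WT cells. Wnt2 was at 2.102 and 1.18 CPM in KO cells and 0.808 and 1.07 CPM in WT cells on day 4, and at 3.21 and 1.16 CPM in KO and 0.758 and 0.219 CPM in WT diff_XEN libraries. Wnt7b, a ligand of lung and placenta formation, was at 17.8 and 20.6 CPM in KO cells and 17.1 and 12.6 CPM in WT cells on day 1, and at 8.93 and 12.3 CPM in KO cells and 8.53 and 12.2 CPM in WT cells on day 4. Fzd3, a receptor of axon guidance, was at 16.9 and 28.5 CPM in KO cells and 13.1 and 17.8 CPM in WT cells on day 4, and at 11.4 and 11.2 CPM in KO and 7.39 and 9.24 CPM in WT diff_XEN libraries. Fzd9 was at 2.13 and 3.87 CPM in KO cells and 4.41 and 3.62 CPM in WT cells on day 1, and at 0.976 and 0.619 CPM in KO cells and 1.17 and 1.43 CPM in WT cells on day 4.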
